A study of Mus musculus with 36 samples.

Results

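Transcripts of 8 C-type lectin receptor genes of myeloid cells were followed in the lungs of mice that had received MC252 crude oil, the dispersants Corexit 9500 or Corexit 9527, or oil with either dispersant. The genes were Clec4n, Clec4a3, Clec4d, Clec4e, Clec7a, Clec5a, Clec10a and Mrc1, taken by symbol, and all 8 were found among the 18116 uniquely named genes of the female count table and the 18291 of the male count table. The 36 mice were wild-type C57BL/6, 8 weeks old at the first dose, with 3 of each sex in each of 6 groups. The groups were saline, oil alone, each dispersant alone (Corexit 9500 or Corexit 9527), and each of them mixed with oil (9500+oil or 9527+oil). The airways received 3 doses of a fraction diluted to 0.1, on days 0, 7 and 13, with saline as the control. The route was oropharyngeal aspiration in the study's methods and intratracheal instillation in the deposited labels. Total RNA of the left lung was taken on day 14. No mouse carried a transgene, and saline mice were dosed in the same way as the others. Female and male mice were held in separate tables and were tested apart unless stated.

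C-type lectin receptors are surface proteins through which macrophages, dendritic cells, monocytes and neutrophils recognise sugars and glycolipids of microbes and of damaged host cells. Several of them signal through an activating motif, carried by the receptor or by a partner such as the Fc receptor gamma chain (Fcer1g) or DAP12 (Tyrobp), to the kinase Syk and on to Card9, Bcl10 and Malt1, which leads to cytokine transcription. Others take up glycans for degradation, and in the lung alveolar macrophages are a known site of both functions. The RNA came from whole lung, so that fewer cells of a type and less RNA per cell cannot be told apart in any value below.

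The libraries held 17501716 to 30014986 counts, and levels are given as CPM, the usual scaling of counts to library size, with sizes adjusted by the trimmed mean of M values (TMM). 4 female libraries stood apart. Mitochondrial genes took 45.1% of the counts in saline mouse 3, 38.4% in Corexit 9527 mouse 11, 22.6% in oil mouse 6 and 20.7% in 9500+oil mouse 14, against 6.16 to 11.3% in the other 14 female libraries and 5.27 to 7.68% in the 18 male libraries. Saline mouse 3 had no count for 1040 genes whose median over the other female mice was at least 5 CPM. Results of female mice are therefore given with and without these 4 libraries.

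The receptors differed in how they stood in those 4 libraries. Clec4n and Clec4d had 0 counts in female saline mouse 3, where 3 counts would be 0.352 CPM. Clec7a and Mrc1 were at 225 and 251 CPM in the same library, against 76.4 to 78.7 and 72.5 to 72.7 CPM in the other saline females. In Corexit 9527 mouse 11, Clec7a reached 337 CPM and Clec4a3 57.7 CPM, the highest of the 18 female mice, while Clec4n was lowest of its group at 7.66 CPM. In each of the 4 libraries Clec4n was the lowest, and Clec7a and Mrc1 the highest, of the 3 mice of its group. The summed alveolar macrophage markers were also high in these 2 mice, at 900 CPM in saline mouse 3 and 1174 CPM in mouse 11, and the summed interstitial macrophage markers were low, at 59.8 and 72.8 CPM. The part of library quality in these levels was not tested apart from the comparisons without them.

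**Figure D1:**
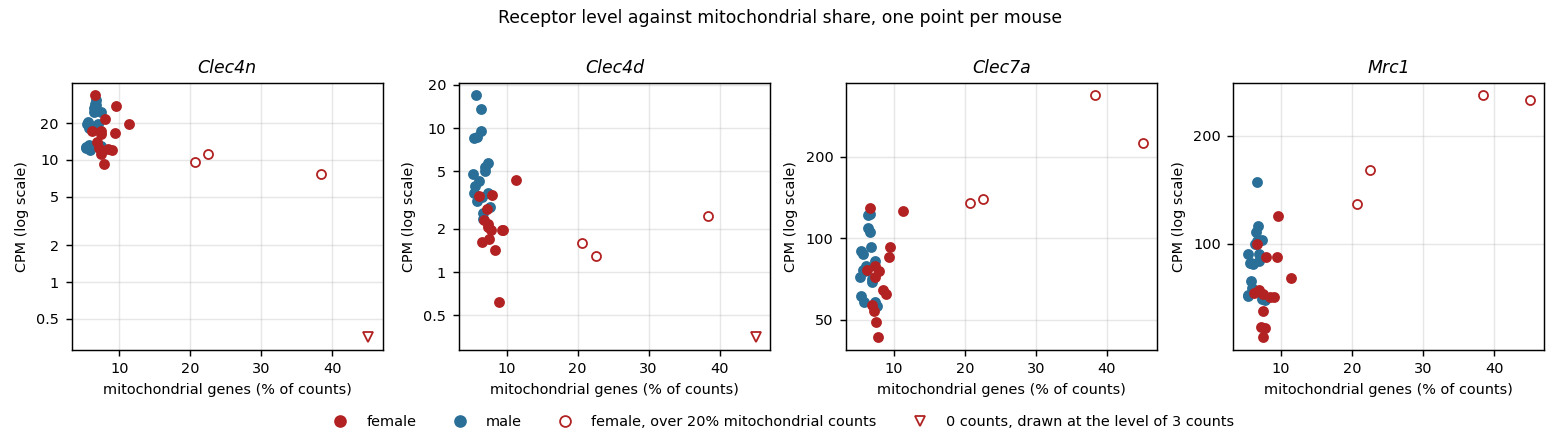
CPM of Clec4n, Clec4d, Clec7a and Mrc1 (log axis) against the percentage of counts on mitochondrial genes, with one point per mouse, female mice in red and male mice in blue. The 4 open points are the female libraries over 20%, each with the highest Clec7a and Mrc1 and the lowest Clec4n of the 3 mice of its group, and with 0 counts of Clec4n in one of them.

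In male saline mice the order of levels per kilobase of transcript was Clec7a at 29.6, Mrc1 at 14.7, Clec4n at 10.4, Clec4a3 at 10.1, Clec4d at 3.44, Clec4e at 2.51, Clec10a at 1.53 and Clec5a at 1.15 CPM per kb. The neighbours Clec4n and Clec4a3, and Clec10a and Clec5a, lay within the spread between mice. Over all 18 male mice the ranges were 56.4 to 123 CPM for Clec7a and 69.7 to 148 CPM for Mrc1, and no member was at 0 in a male mouse. Between the lowest and the highest treatment group the male group means differed 3.44-fold for Clec4d and 3.39-fold for Clec4e, 2.27-fold for Clec4n, and 1.54 to 1.85-fold for the other 5 genes. Relative to the group mean, the widest spread between mice of one group was also that of Clec4d and Clec4e, while the largest SD in CPM was that of Mrc1 after Corexit 9527, at 24.3 CPM.

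**Figure D2:**
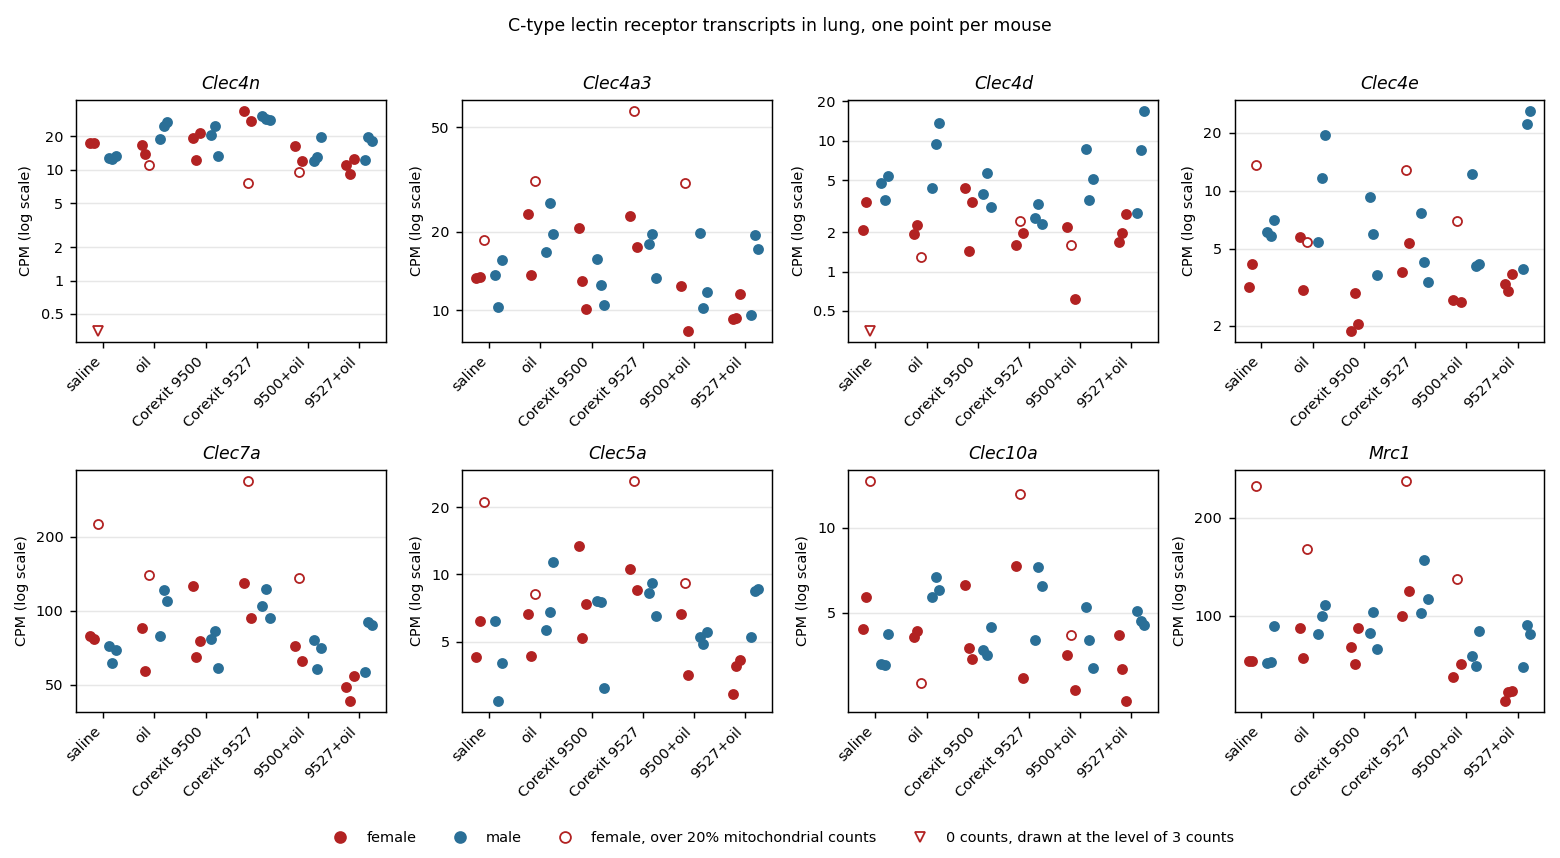
CPM of each of the 8 genes (log axis) in the 6 groups, with one point per mouse, female in red and male in blue. Open points are the 4 female libraries with over 20% mitochondrial counts, and the open triangles are 0 counts, drawn at the level of 3 counts. In male mice the 3 Clec4n points of Corexit 9527 lie at 28.0 to 30.7 CPM above saline at 12.5 to 13.3 CPM, while Clec4d of Corexit 9527 lies below saline.

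Corexit 9527 against saline was the comparison in which a member passed the test in male mice. Clec4n, which encodes Dectin-2, a receptor for fungal mannans that signals through the Fc receptor gamma chain, was at 12.6, 12.5 and 13.3 CPM in the saline mice and at 30.7, 28.5 and 28.0 CPM in the Corexit 9527 mice. The 2 groups did not overlap, and the means were 12.8 ± 0.419 and 29.1 ± 1.41 CPM (SD, n = 3 each). Clec4n rose by a log2 fold change of 1.18 (SE 0.11), which is 2.27-fold, with an adjusted p of 0.0147 in edgeR. It was 1 of 17 genes called among 14919, or 0.114%. The fold change stayed between 1.14 and 1.22 on the log2 scale when each of the 6 mice was left out in turn, but the adjusted p then ran from 0.00899 to 0.138, and the call was lost without saline mouse 1, 2 or 3 or Corexit 9527 mouse 10. DESeq2 called Clec4n, Clec7a and Mrc1, with adjusted p of 3.25e-12, 1.65e-04 and 0.0145, among 3.15% of the genes it tested. Limma with library quality weights called Clec4n and Clec7a, among 0.744% of its genes.

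The other members lay in 2 directions in this male comparison. At an unadjusted p under 0.05, 6 of the 8 genes differed from saline, beside 13.7% of all genes, with 5 higher (beside 7.96%) and 1 lower (beside 5.78%). Clec7a, the beta-glucan receptor Dectin-1 with an activating motif of its own, was at 71.9, 61.2 and 69.0 CPM in saline and 105, 123 and 93.2 CPM in Corexit 9527 mice (log2 fold change 0.67, SE 0.12, adjusted p = 0.0729 in edgeR). Mrc1, the mannose receptor used for uptake, was at 71.6, 71.9 and 93.3 CPM in saline and 102, 148 and 112 CPM after Corexit 9527 (0.61, SE 0.16, adjusted p = 0.166). Neither gene overlapped between the groups. Clec5a, which pairs with DAP12, had a log2 fold change of 0.89 (SE 0.31, adjusted p = 0.252) without overlap, and Clec10a, a galactose-binding receptor of macrophages and dendritic cells, had 0.70 (SE 0.28, adjusted p = 0.315) with overlap. Clec4d lay on the other side, at 4.77, 3.52 and 5.37 CPM in saline and 2.55, 3.31 and 2.33 CPM in Corexit 9527 mice (-0.74, SE 0.28, adjusted p = 0.295). All 3 of its treated mice were below all 3 saline mice. Groups were apart with higher treated mice for 4 members, beside 10.7% of all genes, and with lower treated mice for 1 member, beside 9.48%. The median of the 8 members was 0.64 on the log2 scale and that of all genes -0.01.

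Marker genes of macrophages and neutrophils differed in the same mice. The 10 alveolar macrophage markers summed to 373, 376 and 425 CPM in male saline mice and to 475, 542 and 564 CPM in Corexit 9527 mice, with 7 of 10 higher, 4 of them at an unadjusted p under 0.05 in edgeR, and none called. The 10 neutrophil markers summed to 322, 295 and 321 CPM in saline and 291, 291 and 128 CPM in Corexit 9527 mice, with 3 of the 9 tested higher and 6 lower. All 5 proliferation markers were higher at such a p, with sums of 71.6, 44.2 and 62.2 CPM in saline and 206, 260 and 112 CPM in Corexit 9527 mice, and all 6 endothelial markers were lower, 4 of them at such a p. None of these was called. No marker of these 4 lists was at 0 in a male group. Their part in the receptor levels was not tested.

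After oil all 8 members were higher in male mice, beside 47.1% of all genes with a fold change above 0. All 8 had a higher level at an unadjusted p under 0.05 in edgeR, beside 5.75% of all genes, and their median log2 fold change was 0.82 beside -0.01 for all genes. None passed adjustment, where 1 of 14914 genes did (0.00671%), and the lowest adjusted p of a member was 0.182. Clec4n was at 18.8, 24.6 and 26.7 CPM in the oil mice, above every saline mouse (log2 fold change 0.86, SE 0.15). Clec7a was at 78.8, 122 and 110 CPM, also above every saline mouse (0.61, SE 0.16, adjusted p = 0.330). DESeq2 called these 2 genes with adjusted p of 9.01e-04 and 0.0343, among 0.953% of its genes. Clec4a3, of the dendritic cell immunoreceptor (DCIR) subfamily, and Clec10a also had no overlap, with 16.7, 25.8 and 19.6 CPM against 13.6, 10.3 and 15.5 CPM for Clec4a3 (0.65, SE 0.21, adjusted p = 0.430) and 5.69, 6.70 and 6.01 CPM against 3.28, 3.25 and 4.20 CPM for Clec10a (0.77, SE 0.21, adjusted p = 0.351). These were the 4 members with no overlap, beside 7.42% of all genes.

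The remaining members overlapped between the oil and saline males. Clec4e, which encodes Mincle, a receptor for mycobacterial glycolipid and for a protein released by dying cells, was at 6.11, 5.82 and 7.04 CPM in saline and at 5.44, 11.7 and 19.6 CPM after oil (0.95, SE 0.39, adjusted p = 0.564). Clec4d, the receptor MCL that forms a complex with Mincle, was at 4.32, 9.49 and 13.6 CPM after oil (1.00, SE 0.38, adjusted p = 0.524). Mouse 4 was at or below the highest saline mouse for both genes and mouse 6 was highest for both. In the same order the summed neutrophil markers of the oil mice were 392, 504 and 1143 CPM, with all 10 markers higher than in saline and 7 of them at an unadjusted p under 0.05. Clec5a (0.87, SE 0.35, adjusted p = 0.560) and Mrc1 (0.32, SE 0.13, adjusted p = 0.587) were the other members. The summed interstitial macrophage markers were 500, 444 and 579 CPM in oil and 369, 335 and 302 CPM in saline males, and the alveolar macrophage markers 509, 529 and 651 CPM in oil males. The part of these cells was not tested.

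Corexit 9500, 9500+oil and 9527+oil gave fewer differences from saline in male mice. After Corexit 9500, Clec4n was at 20.5, 24.6 and 13.3 CPM, with the third mouse just above the highest saline mouse (0.60, SE 0.20, adjusted p = 0.782), and it was the only member with an unadjusted p under 0.05 in edgeR, beside 6.35% of all genes. After 9500+oil no member had such a p, beside 9.22% of all genes, and log2 fold changes ran from -0.01 to 0.33. After 9527+oil, Clec4e was at 3.96, 22.2 and 25.9 CPM (1.45, SE 0.55, adjusted p = 0.885) and Clec5a at 5.26, 8.41 and 8.64 CPM (0.78, SE 0.33, adjusted p = 0.885), and these were the 2 members with an unadjusted p under 0.05, beside 5.54% of all genes. Both overlapped with saline, and for Clec4e the low mouse was mouse 16. Without that mouse the Clec4e fold change was 1.92 on the log2 scale with an adjusted p of 0.00817 in edgeR. That fit called 54 of 15109 genes (0.357%). With each of the 6 mice left out in turn the fold change ran from 1.04 to 1.92 and the adjusted p from 0.00817 to 0.998. Clec4e was called only in the fit without mouse 16. The summed neutrophil markers of the 3 mice given 9527+oil were 277, 1093 and 1462 CPM, in the order of Clec4e. In saline they were 295 to 322 CPM, with all 10 markers higher after 9527+oil and 9 of them at an unadjusted p under 0.05. Their part was not tested. Clec10a was at 5.09, 4.67 and 4.54 CPM, above every saline mouse, and was the only member apart from saline there, beside 5.92% of all genes. No member was called in these 3 comparisons, where edgeR called 1 gene for Corexit 9500 (0.00662%), 1 for 9527+oil (0.00669%) and 0 for 9500+oil. All 5 comparisons share the same 3 saline males.

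**Figure D3:**
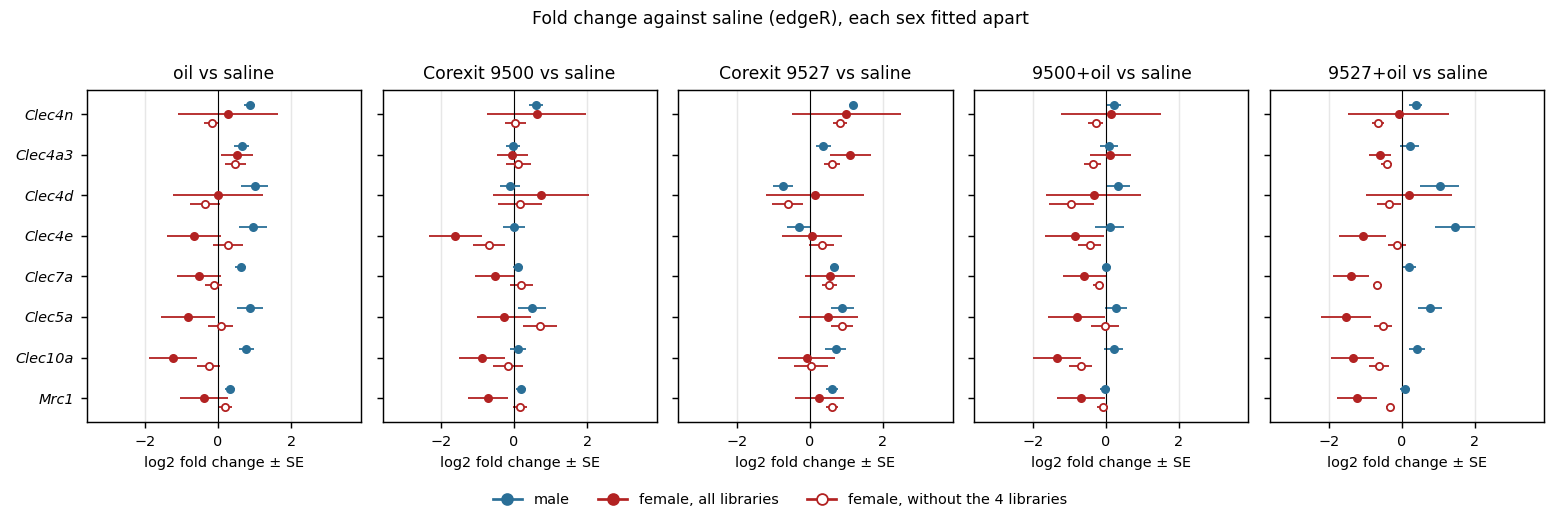
Log2 fold change against saline with its standard error for the 8 genes (rows) in the 5 treatments (panels), from edgeR fits within each sex. Male mice are in blue, all female mice in filled red and female mice without the 4 libraries in open red. In males all 8 points lie right of 0 after oil, and after Corexit 9527 Clec4d and Clec4e lie left of 0. Errors of the female mice shrink without the 4 libraries.

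Clec4d and Clec4e lie beside each other on chromosome 6 and had like profiles in male mice, so their promoters are shown, with that of Clec7a beside them. Their profiles were not alike in female mice, with r = -0.170 over the 14 females without the 4 libraries. In GRCm38, the 4 genes Clec4a3, Clec4n, Clec4d and Clec4e lie within 337 kb, with Clec4d at chr6:123262111-123275265 on the plus strand and Clec4e at chr6:123281789-123289870 on the minus strand. Clec7a (chr6:129461591-129472779) and Clec5a (chr6:40574894-40585821) are on the same chromosome, Clec10a on chromosome 11 and Mrc1 on chromosome 2. RefSeq promoters (GRCm38.p6) were at hand for 6 of the 8 genes. The 250 bases before the start site are given 5′ to 3′ on the strand of the gene, at chr6:123261857-123262106 for Clec4d, chr6:123289872-123290121 for Clec4e and chr6:129472780-129473029 for Clec7a. Capitals mark matches on either strand to the PU.1 letters GAGGAA, the C/EBP letters TTNNGNAA or the TATA box TATAAA, where N is any base.
Clec4d: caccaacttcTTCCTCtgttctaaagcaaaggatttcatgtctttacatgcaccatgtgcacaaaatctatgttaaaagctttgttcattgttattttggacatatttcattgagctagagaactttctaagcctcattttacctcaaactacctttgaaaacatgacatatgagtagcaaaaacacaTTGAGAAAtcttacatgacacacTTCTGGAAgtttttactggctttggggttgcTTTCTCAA
Clec4e: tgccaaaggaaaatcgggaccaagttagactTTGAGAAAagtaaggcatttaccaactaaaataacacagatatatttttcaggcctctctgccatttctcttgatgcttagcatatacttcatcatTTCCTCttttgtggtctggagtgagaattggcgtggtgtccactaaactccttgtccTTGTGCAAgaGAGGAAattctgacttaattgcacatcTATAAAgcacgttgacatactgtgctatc
Clec7a: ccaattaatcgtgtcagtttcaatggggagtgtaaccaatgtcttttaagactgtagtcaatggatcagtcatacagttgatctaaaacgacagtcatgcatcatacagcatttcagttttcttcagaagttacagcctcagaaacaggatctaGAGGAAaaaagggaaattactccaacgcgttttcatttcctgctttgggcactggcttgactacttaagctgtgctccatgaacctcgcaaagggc
Clec4d held 1 match to the PU.1 letters and 3 to the C/EBP letters, and Clec4e held 2 of each and the TATA box 29 to 24 bases before its start. Clec7a held 1 PU.1 match and neither of the others. These letters did not set Clec4d and Clec4e apart from all other members, as Clec5a held 2 PU.1 matches, 1 C/EBP match and a TATA box match, and Mrc1 held 3 PU.1 matches and 2 C/EBP matches that overlap. Of 32536 promoters of this length, 23.4% held the PU.1 letters, 36.8% the C/EBP letters and 12.3% the TATA box, and no matches overlapped in these 3 windows. The AP-1 letters TGANTCA (6.73% of promoters) were also searched on both strands and had no match in these 3 windows. A match describes the letters only.

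The members were also compared with each other over the mice. Over 18 male mice, Pearson's r of log2 CPM was positive for all 28 pairs of members, from 0.0432 to 0.871, and 15 pairs had an adjusted permutation p under 0.05 over the 56 pairs of both sexes. Clec4d and Clec4e had r = 0.867 (permutation p = 2e-05, adjusted 2.24e-04) and Spearman's rho = 0.779 (adjusted permutation p = 0.00119), and r = 0.761 without the 2 mice farthest from the median. Clec4n and Mrc1 had r = 0.871 (permutation p = 1e-05, the smallest that 100000 resamples can give, adjusted 2.24e-04) and rho = 0.905 (adjusted permutation p = 2.8e-04), and r = 0.885 without the 2 farthest mice. Clec4n and Clec4d had r = 0.0432 (permutation p = 0.863, adjusted 0.878) and rho = -0.0960 (adjusted permutation p = 0.796). These pairs mix treatment groups, and for deviations from the group means r was 0.857 for Clec4d and Clec4e, 0.682 for Clec4n and Mrc1 and 0.566 for Clec4n and Clec4d. By that measure Clec4d was as near to Clec7a (0.859) as to Clec4e, and Clec4e had 0.786 with Clec7a.

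**Figure D4:**
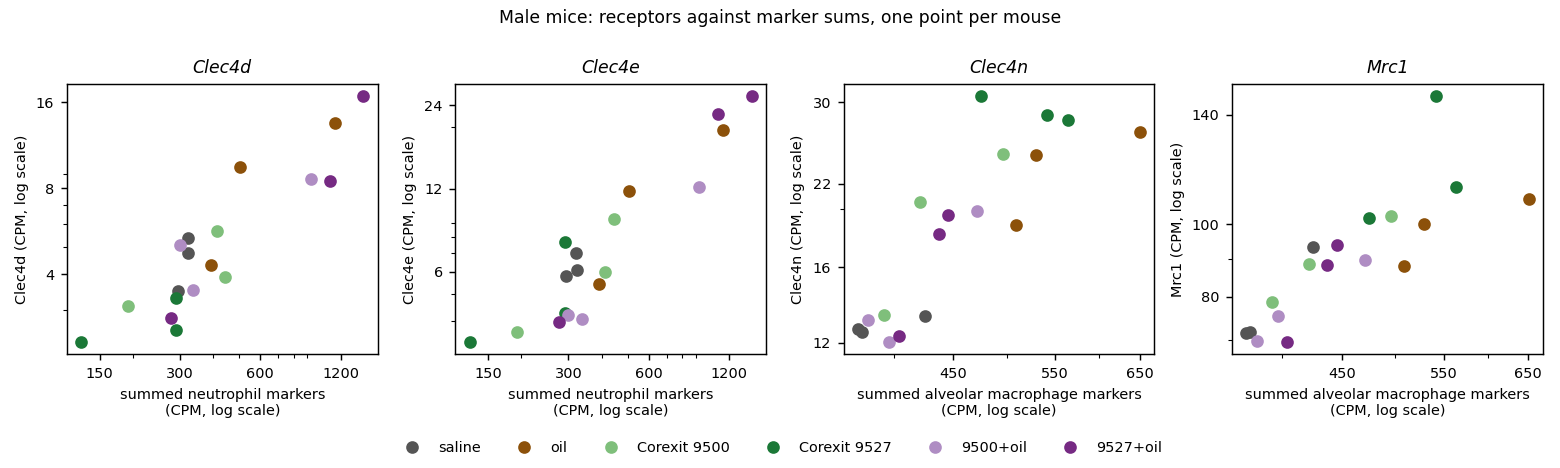
CPM of Clec4d and Clec4e against the summed CPM of 10 neutrophil markers, and of Clec4n and Mrc1 against that of 10 alveolar macrophage markers, in the 18 male mice (all axes log, one point per mouse, coloured by treatment). The highest Clec4d and Clec4e levels, 16.8 and 25.9 CPM, are those of the 9527+oil mouse with the highest neutrophil sum, 1462 CPM.

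Marker sums and receptors were compared over the same male mice, in a family of 80 relations with the female mice included. The neutrophil sum had r = 0.907 with Clec4d (permutation p = 1e-05, adjusted 2e-04, and rho = 0.903, adjusted permutation p = 5.33e-04) and r = 0.930 with Clec4e (permutation p = 1e-05, adjusted 2e-04, and rho = 0.862, adjusted permutation p = 5.33e-04). Without the 2 farthest mice these were 0.832 and 0.880, and for deviations from group means 0.865 and 0.943. With Clec4n the neutrophil sum had r = 0.0204 (permutation p = 0.936, adjusted 0.960, and rho = -0.0464, adjusted permutation p = 0.924), but 0.460 for deviations from group means, and with Clec7a r was 0.297 (permutation p = 0.232, adjusted 0.395, and rho = 0.304, adjusted permutation p = 0.425) and 0.780 for such deviations. The alveolar macrophage sum had r = 0.855 with Clec4n (permutation p = 2e-05, adjusted 3e-04, and rho = 0.833, adjusted permutation p = 6.67e-04), which was 0.866 without the 2 farthest mice and 0.723 for deviations from group means. With Mrc1 it had r = 0.823 (permutation p = 5e-05, adjusted 4.44e-04, and rho = 0.870, adjusted permutation p = 6.67e-04), which was 0.854 without the 2 farthest mice. The values of 1 mouse share a library, and cause and direction were not tested. The monocyte sum had r = 0.824 with Clec4d and 0.876 with Clec4e (adjusted permutation p = 3e-04 and 2e-04, rho 0.672 and 0.835, adjusted permutation p = 0.0179 and 9e-04), and 0.692 and 0.800 without the 2 farthest mice. It also had an adjusted permutation p under 0.05 for Pearson's r with Clec4a3 (r = 0.781), Clec5a (r = 0.698) and Clec7a (r = 0.586), where the neutrophil sum had none (adjusted permutation p = 0.0515, 0.104 and 0.395), and the difference between the sums was not tested.

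Oil with Corexit 9527 was compared with Corexit 9527 alone, which asks what the oil added to the dispersant. In the study's methods the oil-alone dose was the separated saline phase, whereas mixtures of oil and dispersant were given without that separation. In male mice 3 members were lower and 2 higher at an unadjusted p under 0.05 in edgeR, beside 6.44% of all genes lower and 5.13% higher. Clec4n was at 12.3, 19.5 and 18.2 CPM with oil and at 28.0 to 30.7 CPM without (-0.81, SE 0.18, adjusted p = 0.307). Clec7a (-0.47, SE 0.19, adjusted p = 0.413) and Mrc1 (-0.53, SE 0.17, adjusted p = 0.358) were lower too, and the groups of all 3 genes were apart, beside 9.32% of all genes lower without overlap. Clec4d was at 2.83, 8.52 and 16.8 CPM with oil and 2.33 to 3.31 CPM without (1.77, SE 0.56, adjusted p = 0.358), and Clec4e had 1.75 (SE 0.62, adjusted p = 0.394). Mouse 16 lay in the range of Corexit 9527 alone for both genes and mice 17 and 18 above it. No member passed in edgeR, where 2 of 14882 genes did (0.0134%), and DESeq2 called Clec4n and Clec4d with adjusted p of 0.00815 and 0.0390 among 1.50% of its genes. The neutrophil sum was 277, 1093 and 1462 CPM with oil and 128 to 291 CPM without, in the order of Clec4e, and 8 of the 9 tested markers were higher at an unadjusted p under 0.05. The alveolar macrophage sum was 404, 445 and 437 CPM with oil and 475, 542 and 564 CPM without, with no overlap, and 8 of 10 markers were lower, 3 of them at such a p. The proliferation sum was 91.6, 64.7 and 87.7 CPM with oil and 206, 260 and 112 CPM without, also with no overlap, and all 5 markers were lower at such a p. The part of these cells in the receptor levels was not tested.

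In female mice 7 of the 8 members had a lower fitted level with oil in the same comparison, and none passed adjustment with all libraries. Clec7a was at 48.8, 43.0 and 54.1 CPM with oil and 130, 337 and 93.1 CPM after Corexit 9527 alone. Mrc1 was at 54.7, 58.4 and 58.6 CPM with oil and 99.7, 259 and 119 CPM without. Both genes were apart, and the values of 337 and 259 CPM are from library 11 with 38.4% mitochondrial counts. With all libraries 4 members were lower at an unadjusted p under 0.05 in edgeR, beside 4.68% of all genes, and 5 were apart and lower, beside 12.5%, but the lowest adjusted p was 0.555 and none was called. Their log2 fold changes were -1.70 (SE 0.50) for Clec4a3, -1.94 (SE 0.52) for Clec7a, -2.04 (SE 0.51) for Clec5a and -1.48 (SE 0.41) for Mrc1. DESeq2 called Clec5a alone, with an adjusted p of 0.0337, among 0.946% of its genes. Without library 11, Clec4n (-1.48, SE 0.18, adjusted p = 0.0269), Clec7a (-1.19, SE 0.18, adjusted p = 0.0382) and Mrc1 (-0.93, SE 0.13, adjusted p = 0.0325) fell, among 116 of 15325 genes called in edgeR (0.757%). Limma with weights for library quality called 5 members, all lower, but called 13.9% of all genes. Without that library 7 of 10 alveolar macrophage markers were lower, 5 of them at an unadjusted p under 0.05 and 1 called, and 7 of 10 neutrophil markers were higher. All 5 proliferation markers fell in that fit, with a median of -1.72 on the log2 scale, and all 6 endothelial markers were higher, 5 of them at such a p and none called. Their part in the receptor levels was not tested. With all libraries the female Clec4n levels overlapped, as mouse 11 was at 7.66 CPM. Clec4d of the females was at 1.69 to 2.74 CPM with oil and 1.61 to 2.45 CPM without.

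Oil with Corexit 9500 against Corexit 9500 alone gave no member with an unadjusted p under 0.05 in edgeR in either sex, beside 0.899% of all genes in female and 4.47% in male mice. The log2 fold changes ran from -1.08 to 0.82 in females, with a median of -0.20, and from -0.38 to 0.44 in males. Without the 4 libraries the female values ran from -1.13 to 0.22 with a median of -0.45, again with no such p, beside 0.704% of all genes.

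Against saline, edgeR called no member and no other gene in female mice in any of the 5 treatments, while 16 to 164 genes had an unadjusted p under 0.05 and DESeq2 called 4 to 17 genes and limma with library quality weights 0 to 6, none of them a member. With all libraries, 1 member had an unadjusted p under 0.05 in edgeR, Clec7a after 9527+oil (-1.40, SE 0.49, adjusted p = 0.914), beside 1.10% of all genes. In that comparison 5 of 8 members were apart and lower, beside 7.20% of all genes. Without the 4 libraries Clec7a was at 78.7 and 76.4 CPM in saline (-0.67, SE 0.12, adjusted p = 0.314), Clec4n at 17.3 and 17.3 CPM in saline and 11.1, 9.19 and 12.4 CPM in 9527+oil mice (-0.66, SE 0.16, adjusted p = 0.315). Mrc1 (-0.34, SE 0.09, adjusted p = 0.325) and Clec4a3 (-0.41, SE 0.15, adjusted p = 0.371) were also lower there at an unadjusted p under 0.05, which makes 4 members beside 12.3% of all genes, and 2 of 15147 genes were called (0.0132%), no member among them. All 10 alveolar macrophage markers were lower in that fit, 3 of them at an unadjusted p under 0.05. The 6 monocyte, 5 B cell and 5 proliferation markers were all lower too, 1, 0 and 1 of them at such a p. All 6 endothelial and 7 of 10 neutrophil markers were higher, 0 and 1 at such a p. The part of these cells was not tested.

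After Corexit 9527 the female fold changes depended on library 3 of the saline mice and library 11 of the treated mice. With all libraries the log2 fold changes ran from -0.09 to 1.10 and none had an unadjusted p under 0.05 in edgeR, beside 0.267% of all genes. Without the 2 libraries Clec4n was at 33.7 and 27.4 CPM against 17.3 and 17.3 CPM in saline (0.83, SE 0.20, adjusted p = 0.522). Mrc1 (0.60, SE 0.17, adjusted p = 0.808), Clec5a (0.87, SE 0.30, adjusted p = 0.932), Clec4a3 (0.60, SE 0.22, adjusted p = 0.954) and Clec7a (0.53, SE 0.21, adjusted p = 0.977) also had an unadjusted p under 0.05, beside 4.98% of all genes. All 5 proliferation markers were higher in that fit, each at such a p. Of 10 alveolar macrophage markers 7 were higher, 4 at such a p, and 3 lower, 2 at such a p. All 6 endothelial markers were lower, 1 at such a p. None of these markers was called, and their part in the receptor levels was not tested. After oil, Corexit 9500 and 9500+oil no member had an unadjusted p under 0.05 in edgeR in females, beside 0.108%, 0.364% and 0.155% of all genes with all libraries and 0.959%, 1.64% and 1.24% without the 4. DESeq2 gave such a p to 1 member after Corexit 9500 (Clec4e, beside 1.61% of all genes) and 1 after 9500+oil (Clec10a, beside 0.829%). Limma with quality weights gave it to 1 member after oil (Clec4a3, beside 19.6% of all genes) and 1 after 9500+oil (Clec10a, beside 1.56%), and none of these was called. With all libraries 1 member was apart and lower in each, which was Clec10a after oil (beside 1.02% of all genes) and after 9500+oil (beside 0.737%) and Clec4e after Corexit 9500 (beside 2.90%). Without them the log2 fold changes ran from -0.36 to 0.47, from -0.69 to 0.72 and from -0.95 to -0.03 in these 3 comparisons.

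Over both sexes, with sex as a term, Corexit 9527 gave the only comparison in which the fit without the 4 libraries called members. With all libraries none was called, where 5 of 15107 genes were (0.0331%), and Clec4a3 alone had an unadjusted p under 0.05 in edgeR (0.73, SE 0.31, adjusted p = 1.00), beside 2.87% of all genes. Without the 4 libraries Clec4n (1.04, SE 0.10, adjusted p = 0.00168), Clec7a (0.61, SE 0.11, adjusted p = 0.0180) and Mrc1 (0.61, SE 0.12, adjusted p = 0.0248) rose, among 343 of 15278 genes called (2.25%). Clec4d was at -0.68 (SE 0.22, adjusted p = 0.142) in that fit. Limma with library quality weights and all libraries called 6 members, with Clec4d lower and Clec4n, Clec4a3, Clec7a, Clec5a and Mrc1 higher, among 5.39% of all genes. In that fit without the 4 libraries 7 of 10 alveolar macrophage markers were higher, 5 of them at an unadjusted p under 0.05, and 3 lower, 2 of them at such a p, with 2 of the 10 called, and 8 of the 9 tested neutrophil markers were lower. All 5 proliferation markers rose, with a median of 1.60 on the log2 scale, and all 6 endothelial markers were lower, 5 of them at such a p and 1 called. Their part in the receptor levels was not tested. After oil Clec4a3 had an unadjusted p under 0.05 with all libraries (0.61, SE 0.22, adjusted p = 1.00 in edgeR), beside 0.435% of all genes. Without the 4 libraries Clec4n (0.45, SE 0.19), Clec4a3 (0.58, SE 0.18) and Mrc1 (0.27, SE 0.10) had such a p after oil, beside 2.52% of all genes, each with an adjusted p of 1.00, and the median of the 8 members was 0.47 in place of 0.13. All 10 neutrophil, 9 interstitial macrophage, 6 monocyte and 5 proliferation markers tested were higher there, 2, 1, 0 and 3 of them at such a p. Of 10 alveolar macrophage markers 7 were higher, 4 at such a p, and 3 lower, 1 at such a p. All 6 endothelial markers were lower, and none of these markers was called. Their part was not tested. In the other 3 treatments no member had such a p in either fit, beside 2.26% of all genes for Corexit 9500, 0.391% for 9500+oil and 2.94% for 9527+oil with all libraries and 5.65%, 7.10% and 10.6% without the 4.

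The sexes were compared by the interaction of sex and treatment, where a positive value means a higher log2 fold change in males. Each sex had its own count table, so sex cannot be told apart from table or from any batch that went with it. With all libraries edgeR called no gene in any treatment, while 54 to 368 genes had an unadjusted p under 0.05, and DESeq2 called 2 to 16 genes and limma with library quality weights 0 to 85, none of them a member. All 8 values were positive for oil (0.07 to 1.92) and for 9527+oil (0.47 to 2.49), beside 47.6% and 45.4% of all genes. At an unadjusted p under 0.05 in edgeR there were 1 member for oil (Clec10a), beside 1.65% of all genes, and 4 for 9527+oil, beside 2.39%. For 9500+oil there was 1, again Clec10a, beside 0.509%. The 4 for 9527+oil were Clec4e (2.49, SE 0.95), Clec7a (1.59, SE 0.55), Clec5a (2.29, SE 0.79) and Clec10a (1.74, SE 0.61), each with an adjusted p of 0.948. Without the 4 libraries 4 members had such a p for oil (Clec4n, Clec4d, Clec7a and Clec10a), beside 5.98% of all genes, 5 for 9527+oil (Clec4n, Clec7a, Clec5a, Clec10a and Mrc1), beside 6.73%, and Clec10a for 9500+oil, beside 2.63%. EdgeR then called 1 gene for oil and 1 for 9527+oil, neither a member. In that fit the values for Clec4n were 1.05 (SE 0.24, adjusted p = 0.762) for oil and 1.04 (SE 0.25, adjusted p = 0.714) for 9527+oil. For oil 9 of 10 neutrophil, 7 of 9 interstitial macrophage, 8 of 10 alveolar macrophage and all 6 monocyte markers had positive values there. Of these 3, 5, 3 and 0 had an unadjusted p under 0.05 in edgeR, and none was called. Their part in the receptor values was not tested. For Corexit 9527 the members' values ran from -0.84 to 0.79 with all libraries and from -0.63 to 0.66 without the 4, and none had an unadjusted p under 0.05, beside 0.352% and 2.81% of all genes.

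Genes of the same pathway were read from 3 lists. Of 26 adaptors, kinases and inhibitors of the signalling, all 26 were tested in male mice after oil, with 19 higher and 7 lower, and 11 were higher at an unadjusted p under 0.05 in edgeR, beside 5.75% of all genes. The 3 with the smallest p were Pycard, an inflammasome adaptor (0.69, SE 0.16), Prkcd, a kinase between Syk and Card9 (0.35, SE 0.08), and Fcer1g, the signalling partner of Dectin-2 and Mincle (0.64, SE 0.15), each with an adjusted p of 0.319. The median of the list was 0.22 beside -0.01 for all genes. In females after oil 16 were higher and 10 lower, and without the 4 libraries 14 of 25 were higher and 11 lower with a median of 0.02, and none had such a p in either fit. After Corexit 9527 in males, 14 were higher and 12 lower, and 1 was higher at such a p, Malt1 (0.76, SE 0.22, adjusted p = 0.187), a smaller share than the 7.96% of all genes. The median of the list was 0.04 in that comparison.

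Of 16 genes that these receptors can induce, 10 passed the filter on low counts in males after oil, of which 9 were higher, 4 at an unadjusted p under 0.05 in edgeR, beside 5.75% of all genes. In females after oil 3 of 11 were higher and 8 lower, and without the 4 libraries 2 were higher and 9 lower, with 2 lower at such a p, beside 0.593% of all genes. The leading ones in males were the chemokine Ccl3 (1.01, SE 0.31, adjusted p = 0.417), Tnf (0.97, SE 0.37, adjusted p = 0.531) and Egr2 (0.49, SE 0.20, adjusted p = 0.564). After Corexit 9527 in males 8 of 10 were higher, 2 at such a p (beside 7.96% of all genes), again Ccl3 (0.80, SE 0.32, adjusted p = 0.306) and Tnf (0.91, SE 0.38, adjusted p = 0.337). For 9527+oil against Corexit 9527 in males 5 of 11 were higher and 6 lower, with a median of -0.12, and 1 was higher at such a p, beside 5.13% of all genes. It was Il1b (1.95, SE 0.65, adjusted p = 0.372).

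Of 28 other C-type lectin genes, 21 passed the filter in males for Corexit 9527, of which 12 were higher and 9 lower, with 3 higher and 1 lower at an unadjusted p under 0.05 in edgeR, beside 7.96% and 5.78% of all genes. They were led by Mgl2, the near relative of Clec10a (0.94, SE 0.19, adjusted p = 0.0951), Olr1, an oxidised lipoprotein receptor (0.66, SE 0.16, adjusted p = 0.145), and Clec2d (-0.31, SE 0.09, adjusted p = 0.172). For 9527+oil against Corexit 9527 in males 10 of 22 were higher and 12 lower, with 1 higher and 3 lower at such a p, beside 5.13% and 6.44% of all genes, led by Mgl2 (-0.98, SE 0.18, adjusted p = 0.249) and Olr1 (-0.53, SE 0.15, adjusted p = 0.326). In females of that comparison 3 of 23 were higher and 20 lower, 8 of them at such a p, beside 4.68% of all genes. Without the 4 libraries 5 of 24 were higher and 19 lower in these females. At such a p 2 were then higher and 10 lower, beside 1555 and 1448 of 15325 genes. After oil in males, Clec4a2 (0.88, SE 0.22, adjusted p = 0.319), Clec12a (0.64, SE 0.18, adjusted p = 0.365) and Clec12b (-0.69, SE 0.22, adjusted p = 0.418) led, with 9 of 20 higher and 11 lower. No gene of the 3 lists was called in edgeR in any comparison with all libraries. Without the 4 libraries Olr1 rose (0.56, SE 0.12, adjusted p = 0.0443) and Clec2d fell (-0.31, SE 0.07, adjusted p = 0.0442) after Corexit 9527 over both sexes. Clec4n, Clec4a3, Clec10a and Mgl2 have close relatives, and the share of reads that Salmon assigned between them was not tested.

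The genes most like the mean of the 8 members, by the lower of the 2 tables' Pearson r over 18 mice each among 12713 genes, were Ctss, Msr1, Atp8b4, Fcgr3, Lcp1, Clec12a, Lmnb1 and Clec4a1. For Ctss r was 0.896 in female and 0.913 in male mice, and for Clec4a1 0.842 and 0.806. Over the 14 female mice without the 4 libraries, r ran from 0.702 for Lmnb1 to 0.940 for Ctss. Among single members the nearest gene was Clec4a1 for Clec4a3 (0.922 and 0.931), Msr1 for Clec7a (0.909 and 0.864), Gnptab for Mrc1 (0.920 and 0.878) and Lmnb1 for Clec5a (0.845 and 0.860). For Clec4d it was Sirpb1b (0.862 and 0.848), for Clec4e Cd300lf (0.865 and 0.838), for Clec4n Ppih (0.973 and 0.826) and for Clec10a Fcgr2b (0.750 and 0.749). In the 14 females all 8 of these were lower than over the 18, at 0.300 for Sirpb1b, 0.445 for Cd300lf, 0.474 for Fcgr2b, 0.594 for Gnptab, 0.673 for Lmnb1, 0.676 for Ppih, 0.692 for Msr1 and 0.863 for Clec4a1.

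Over the 14 female mice, 25 of 28 pairs of members had a positive Pearson's r, and 12 had an adjusted permutation p under 0.05. The values ran from -0.170 to 0.904. The lowest was that of Clec4d and Clec4e (adjusted permutation p = 0.657, rho = -0.226, adjusted permutation p = 0.583). Over all 18 female libraries Clec4d and Clec4e had r = -0.536. Clec4n had r = 0.861 with Mrc1 (adjusted permutation p = 5.6e-04, rho = 0.886, adjusted permutation p = 8.4e-04) and 0.881 with Clec7a (adjusted permutation p = 4e-04, rho = 0.895, adjusted permutation p = 0.00101), and 0.852 and 0.776 without the 2 farthest mice. The alveolar macrophage sum had r = 0.899 with Clec4n (adjusted permutation p = 3e-04, rho = 0.916, adjusted permutation p = 5.33e-04) and 0.932 with Clec7a (adjusted permutation p = 2e-04, rho = 0.908, adjusted permutation p = 6.67e-04), and 0.928 and 0.852 without the 2 farthest mice. Over all 18 female libraries these relations had the other sign for Clec4n, with r = -0.544 with Mrc1, -0.413 with Clec7a and -0.473 with the alveolar macrophage sum. For deviations from group means in the 14 mice r was 0.368, 0.670 and 0.561 for Clec4n with Mrc1, Clec7a and the macrophage sum, 0.841 for the sum with Clec7a, and 0.133 for the sum with Mrc1. The neutrophil sum, at 74.6 to 255 CPM in these females, had r = 0.478 with Clec4d (permutation p = 0.0896, adjusted 0.200, and rho = 0.486, adjusted permutation p = 0.189) and -0.449 with Clec4e (permutation p = 0.106, adjusted 0.223, and rho = 0.0593, adjusted permutation p = 0.924), and these were 0.584 and 0.466 without the 2 farthest mice. The wide range of neutrophil markers seen in males, 128 to 1462 CPM, was not present in the female mice.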

How the data were processed

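RNA of the left lung of 36 mice was sequenced from stranded mRNA libraries. The authors estimated transcript reads with Salmon on the GRCm38 transcriptome and combined them with tximport, and the deposited values are unnormalized estimated counts per gene symbol in a table for each sex. They were already whole numbers and were rounded for safety. In either table, 4 rows sharing a name were left out (0.0103% of female and 0.0128% of male counts). Salmon divides reads between similar genes, so levels of close relatives are uncertain. Samples were grouped by the treatment and sex in their labels, and no label says that mice were independent litters.

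The test was glmQLFTest of edgeR 4.0.16 (R 4.3.3), preceded by filterByExpr and TMM, on the mice of the groups compared, with Benjamini-Hochberg adjustment over all genes tested and calls at an adjusted p under 0.05. Sex was added as a term where both were fitted, on genes found in both tables. A standard error is the log2 fold change divided by the square root of F. Correlations used log2 CPM with a prior count of 2 and 2-sided permutation tests of 100000 resamples, over male mice and the 14 female mice without the 4 libraries. With 3 mice a group, only differences that were large against the spread could pass. A count of 3 was taken as the floor for 0, for counting error only. Positions came from GENCODE M21.

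Fold change, standard error and adjusted p are given for most members with an unadjusted p under 0.05 in the main fit. In each list they are given for up to 3 genes of the smallest p. The members and lists were chosen with earlier results of these data known, so p values over them are descriptive. The alternatives were DESeq2 1.42.0, its size factors, upper-quartile scaling, no filter, a minimum of 10 counts per mouse, a joint fit of the 6 groups, limma 3.58.1 voom with quality weights, GC and length offsets, no sex term, no library over 20% mitochondrial counts, and each mouse left out in turn. A block by mouse number was added after seeing the data. Shares given for DESeq2 are of all genes with a p value, including any that its own filter left without an adjusted p.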

Additional observations from a re-analysis of the deposited data

Results flagged for a closer look

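After oil Clec10a lay on opposite sides of saline in the sexes. Every treated female was below every saline female, and every treated male was above every saline male. The female fold change had no unadjusted p under 0.05 in edgeR, with or without the 4 libraries. Female levels were 4.38, 5.67 and 14.6 CPM in saline and 4.09, 4.29 and 2.82 CPM after oil, and male levels were 3.28, 3.25 and 4.20 CPM in saline and 5.69, 6.70 and 6.01 CPM after oil. The log2 fold change was higher by 1.92 in males (SE 0.64), with an adjusted p of 1.00 for the interaction in edgeR, and by 1.04 (SE 0.31, adjusted p = 0.762) without the 4 libraries of high mitochondrial share. The female saline mouse at 14.6 CPM and the female oil mouse at 2.82 CPM were both among these 4. The remaining females were at 4.38 and 5.67 CPM in saline and at 4.09 and 4.29 CPM after oil.

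Clec10a stood in the same way after 9527+oil, with 4.16, 3.16 and 2.43 CPM in females and 5.09, 4.67 and 4.54 CPM in males. With all libraries it had no unadjusted p under 0.05 against saline in edgeR within either sex. The difference between the sexes was 1.74 on the log2 scale (SE 0.61, adjusted p = 0.948 in edgeR), and 1.03 (SE 0.34, adjusted p = 0.732) without the 4 libraries. Both results share the same saline mice, and in both sex cannot be told apart from count table.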

How the results depend on the processing

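No alternative changed the sign of a member's fold change that had an unadjusted p under 0.05 with all libraries. In male mice DESeq2 called 2 members for oil, 3 for Corexit 9527 and 2 for 9527+oil against Corexit 9527, where edgeR called 0, 1 and 0, and limma with quality weights called 2 for Corexit 9527 (0.744% of all genes). Over both sexes Corexit 9527 went from 0 members to 6 with limma weights and to 3 without the 4 libraries. In female mice 9527+oil against Corexit 9527 went from 0 to 1 with DESeq2, to 5 with limma weights and to 3 without the 4 libraries. Leaving out each mouse in turn gave 0 to 2 members for Corexit 9527 in males (2 without mouse 12, with 1.39% of all genes called), 0 to 1 for 9527+oil against saline in males (1 without mouse 16) and 0 to 3 for 9527+oil against Corexit 9527 in females, the last without mouse 11, and 0 in the other comparisons. The female median of the 8 members against saline crossed 0 without saline mouse 3, from -0.46 to 0.28 for oil, from -0.40 to 0.14 for Corexit 9500 and from -0.63 to 0.18 for 9500+oil on the log2 scale. For Corexit 9527 it was 0.38 with all mice, 1.06 without saline mouse 3 and -0.18 without mouse 11. The cause of these differences was not tested. No paired analysis was possible because treatment groups share no mouse number within a sex. Female and male mice of a treatment do share numbers, but deviations of same-numbered mice had r from -0.47 to 0.34 over 12720 genes, and a fit of the 5 interactions with the replicate block called 0 members, as without it. Depth was unequal in males, where the Corexit 9500 libraries (27122496 to 29170801 counts) all lay above those of saline (19305044 to 22299816).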
